A study of Mus musculus with 6 samples.

Results

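The genes described here are single-exon transcripts with provisional mouse symbols, 1018 of the 55376 genes in the count tables of this RIP-seq experiment. They were chosen by 3 criteria: a symbol made of Gm37, Gm38, Gm42 or Gm43 and 3 further digits, a single exon entry in the annotation, and a summed raw count of at least 3 in the 2 IgG libraries. Of 2850 genes with such symbols, 2170 had a single exon and 1152 of these stayed under the IgG threshold. RNA immunoprecipitation followed by sequencing (RIP-seq) recovers the RNA that comes down with a protein. Here RNA bound by CPEB1, which binds cytoplasmic polyadenylation elements in mRNA and controls poly(A) tail length and translation, was compared with RNA from a control immunoprecipitation with IgG and with input RNA. The cells were satellite cells (SCs), the stem cells of skeletal muscle. They were sorted by flow cytometry from C57BL/6 mice aged 3 months for which no further allele or treatment was stated, and each of input, CPEB1 IP and IgG had 2 libraries. The libraries of a group are described as biological replicates, but the labels do not say which animals each came from, and p-values measure the spread between these libraries. In bulk RNA, fewer cells of a type and less RNA for each cell cannot be told apart.

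GENCODE gives most of these genes the biotype TEC, a class for loci whose transcript still awaits experimental proof. Such loci rest on clusters of unspliced ESTs with signs of polyadenylation. An intron is transcribed with its gene and then spliced out, so that input RNA holds intron sequence in nuclear pre-mRNA more than in cytoplasmic mRNA. SMART-seq2, the library method, starts from oligo(dT) and does not mark strand. Reads on a gene inside an intron therefore cannot be told apart from unspliced RNA of the enclosing gene, and opposite-strand pairs cannot be separated by strand.

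Sequences of 4 abundant members, all among the 8 with the highest mean level over the 6 libraries and all lower in CPEB1 IP than in input in the count test below, show how far members differ in their stretches of A or T: 3 hold a long run and 1 does not. Each is a window of 120 bases on the annotated strand, from the GENCODE transcripts of the mm10 assembly, 5′ to 3′, with the longest run of A or T in capitals. Gm37899 (chr12:109673619-109673738, plus strand) had a run of 17 T, Gm43361 (chr5:122497537-122497656, plus) 21 T and Gm38211 (chr1:45488726-45488845, minus) 21 A. Gm43359 (chr5:122484880-122484999, minus) held no run of 10, and the first bases of its span are shown. The 4 do not stand for all members. Gm37728 and Gm38340, also among the 8, held no run of 10, and the longest run of Gm43362 was 10 A. Over all members the median longest run was 7 for A and 7 for T.
Gm37899: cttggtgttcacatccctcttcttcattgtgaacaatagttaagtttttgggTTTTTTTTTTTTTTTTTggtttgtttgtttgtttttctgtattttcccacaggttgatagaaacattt
Gm43361: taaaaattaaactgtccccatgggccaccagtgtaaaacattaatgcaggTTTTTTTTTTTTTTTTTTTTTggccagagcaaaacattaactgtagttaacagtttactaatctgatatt
Gm38211: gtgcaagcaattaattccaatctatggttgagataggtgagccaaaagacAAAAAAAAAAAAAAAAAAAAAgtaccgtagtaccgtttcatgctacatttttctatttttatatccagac
Gm43359: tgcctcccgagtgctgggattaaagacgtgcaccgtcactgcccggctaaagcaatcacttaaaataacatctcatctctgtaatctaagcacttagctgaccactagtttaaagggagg

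A run of at least 10 A on the annotated strand was present in 232 members (22.8%) and a run of at least 10 T in 320 (31.4%), with 473 (46.5%) holding at least 1 of them. Runs were searched as uninterrupted single-base stretches, and a T run on one strand is an A run on the other. Longer spans hold more runs. Among members of 2000 to 3000 bases, 22.1% had the A run and 32.6% the T run. Of the 149 genes of the same names and lengths under the IgG threshold, 16.1% and 21.5% had them. Median GC content was 41.1% in the members and 44.4% under the threshold, but 41.0% and 41.2% within that length band. In 313 intronic genes of these names within the band, chosen without the IgG threshold, read density (TMM-normalized CPM, counts scaled to library size, per kb of span) in input was 1.35 and 0.818 in the 61 genes with an A run and 0.705 and 0.536 in the 167 with neither run. In IgG it was 2.16 and 2.23 against 1.57 and 1.53. These 61 genes stood above the others in every library, with CPEB1 IP at 0.766 and 0.740 against 0.550 and 0.521.

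By biotype, 865 members (85.0%) were TEC, 63 sense intronic, 46 processed pseudogenes, 24 lincRNAs and 14 antisense RNAs, and the other 6 were spread over 4 classes. Chromosomes 1, 3 and 5 held 786 members (77.2%), as they held 1583 (72.9%) of all 2170 single-exon genes of these names. Span lengths ran from 109 to 74456 bases with a median of 2385, compared with 679.5 bases for the names under the threshold. The part of length in the IgG criterion was not tested. The shortest were Gm37295 (109 bases), Gm37796 (134) and Gm43587 (204), and the longest were Gm37985 (74456), Gm37899 (8717) and Gm37745 (8163). At the threshold itself, the 163 genes with an IgG sum of 3 had a median length of 1940 bases and the 243 with a sum of 2 had 1480. Of these, 62 and 62 had an input count and 117 and 128 a CPEB1 IP count.

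Most members lay inside another annotated gene. The whole span of 754 (74.1%) fell between the start and end of another gene, 677 of them (66.5% of all) without touching any exon and 77 over an exon. A further 26 overlapped a gene in part and 238 (23.4%) lay outside all genes, at a median of 8175 bases from the nearest one, 101 of them within 5000 bases. The enclosed share was 42.2% for the 1152 names under the threshold and 39.4% for the 19474 other single-exon genes. Restricted to the TEC biotype, it was 76.8% of 865 members and 58.4% of 617 genes under the threshold. Position itself did not enter the rule, but length and transcription of the enclosing gene move with the IgG count that did, and their part was not tested.

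**Figure D1:**
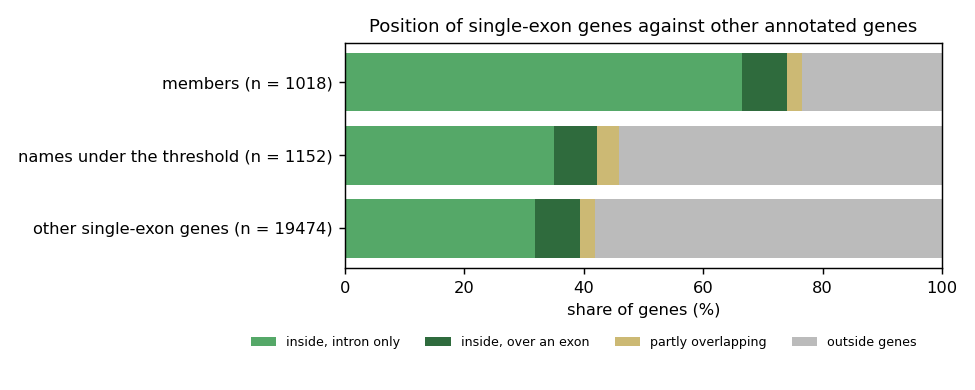
Share of genes (x axis, %) in each position against other annotated genes, for members, single-exon genes of the same names under the IgG threshold and all other single-exon genes. Members inside an intron make up 66.5% of the first bar, against 35.1% and 31.8% in the other bars.

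The 754 enclosed members sat in 480 different genes, 423 of them protein-coding. Of these members, 632 (83.8%) had the strand of the enclosing gene and 122 the opposite strand. In 362 genes there was 1 member, while 118 held more, so 392 members share an enclosing gene with another and are not independent of it. Cntnap2 (a neurexin-family adhesion protein) and Kcnip4 (a regulator of voltage-gated potassium channels) held 14 members each, and Auts2 (a transcriptional regulator) and Pcdh7 (a protocadherin) 13 each.

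These 4 genes fell into 2 kinds by their own reads. Cntnap2 and Kcnip4 had 0 counts in both input libraries, while Auts2 had 592 and 542 and Pcdh7 199 and 277. The 14 members in Cntnap2, over 41494 bases in all, summed to 0 and 0 counts in input, 7 and 16 in CPEB1 IP and 41 and 60 in IgG. Those in Kcnip4 summed to 0 and 1 in input, 9 and 38 in CPEB1 IP and 29 and 60 in IgG. Each member needed an IgG sum of at least 3, and these genes were picked for holding the most members. IgG reads on their members therefore follow from the choice. In CPEB1 IP, which the rule did not use, both libraries had reads on members of both genes, while input had 1 read in all. In Auts2 the members summed to 109 and 69 counts in input, 44 and 124 in CPEB1 IP and 89 and 73 in IgG. In Pcdh7 the sums were 94 and 61, 62 and 123, and 66 and 61. Every member in Auts2 and Pcdh7 had an input count, as against 1 of 14 in Kcnip4 and none of the 14 in Cntnap2.

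Over all members, counts summed to 8422 and 5772 in input, 4248 and 7890 in CPEB1 IP and 6678 and 7096 in IgG. Libraries had between 1284716 (IgG) and 4941653 (CPEB1 IP) counts on genes. As a share of these, members took 0.258% (95% exact Clopper-Pearson interval 0.252 to 0.263) and 0.174% (0.170 to 0.179) in input, and 0.166% (0.161 to 0.171) and 0.160% (0.156 to 0.163) in CPEB1 IP. In IgG they took 0.520% (0.507 to 0.532) and 0.522% (0.510 to 0.534). These intervals cover counting error only. The mean share was 0.216% ± 0.0590 (SD, n = 2) in input and 0.163% ± 0.00424 in CPEB1 IP, a difference no larger than the spread of the input pair, and 0.521% ± 0.00164 in IgG. The 2 input libraries differed 1.48-fold from each other, more than any pair of CPEB1 IP or IgG libraries.

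The members were selected on IgG counts, so their IgG level is a description of the choice and was not tested. It also depends on the denominator. Only 39.6% and 39.1% of the library total used in the authors' FPKM lay on genes in IgG, compared with 71.1% and 79.8% in input and 69.9% and 69.5% in CPEB1 IP. Against that total, members took 0.206% and 0.204% in IgG, 0.183% and 0.139% in input and 0.116% and 0.111% in CPEB1 IP. The IgG share was thus 2.41 times the input share on the scale of counts on genes and 1.27 times on the scale of the authors' total. For the 1152 names under the threshold, which the rule kept out, the corresponding folds were 3.39 and 1.78.

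**Figure D2:**
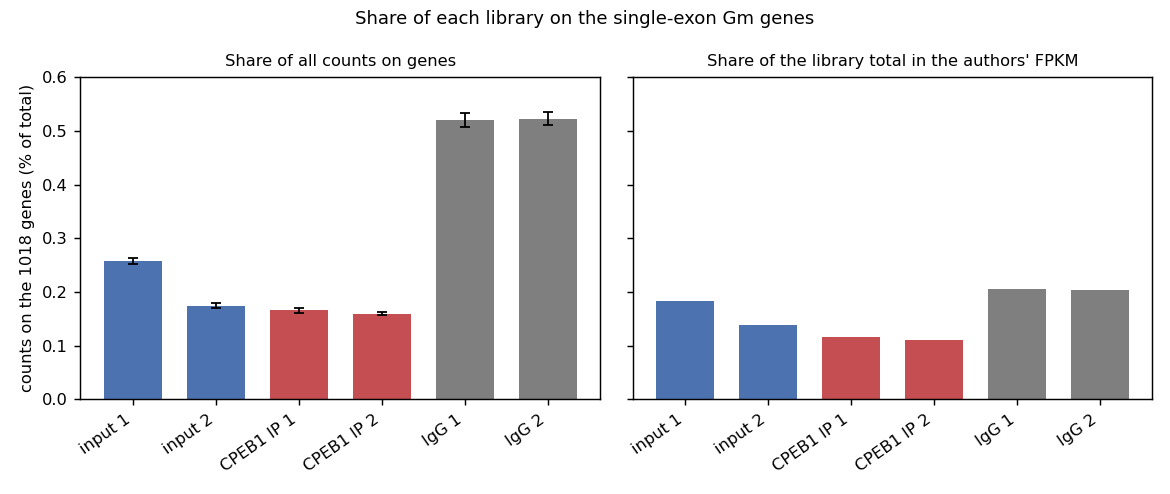
Share of each library on the 1018 members (y axis, %), of all counts on genes with 95% exact binomial intervals (left) and of the library total in the authors' FPKM (right), 1 bar for each library. The IgG bars stand at 0.520% and 0.522% on the left and at 0.206% and 0.204% on the right, where the input bars reach 0.183% and 0.139%.

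Members were thinly covered. The median member had 1 count in each input library, 1 and 2 in CPEB1 IP and 3 and 4 in IgG, and 398 (39.1%) had a count in each of the 6 libraries. Input libraries detected 590 and 541 members, CPEB1 IP libraries 672 and 793 and IgG libraries 945 and 943. Thinned to the lowest depth, the expected numbers were 476 and 424 in input (46.7% and 41.6%) and 526 and 520 in CPEB1 IP (51.6% and 51.1%). Of all 55376 genes, 32.7% and 31.1% were expected in input and 38.2% and 38.1% in CPEB1 IP at that depth. The rise from input to CPEB1 IP was thus shared by genes in general. There were 375 members (36.8%) with 0 counts in both input libraries, of which 276 had a count in CPEB1 IP, while 30 had input counts and 0 in CPEB1 IP. A count of 0 in both input libraries allows up to 0.459 CPM. The 10 most abundant members held 27.3% and 27.1% of member counts in input and 14.4% and 15.4% in IgG. Between replicates, log2 levels correlated across members with a Pearson r of 0.90 in input, 0.81 in CPEB1 IP and 0.47 in IgG (n = 1018 members, which are not replicates). The IgG criterion left out genes low in both IgG libraries but kept genes low in input or CPEB1 IP. These values of r therefore cannot be compared between groups.

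Of the members without an input count, Gm37985, Gm38269 and Gm43879 had the highest IgG sums. Gm37985 (chr4:12597388-12671843, outside genes) had 0 and 0 counts in input, 14 and 15 in CPEB1 IP and 32 and 49 in IgG over its span of 74456 bases. Gm38269 (chr1:145323394-145326691, outside genes) had 1 and 1 in CPEB1 IP and 12 and 13 in IgG. Gm43879 (chr6:45080746-45084505, in an intron of Cntnap2) had 0 and 3 in CPEB1 IP and 10 and 13 in IgG. In each of the 3, both IgG libraries exceeded both CPEB1 IP libraries in raw counts, as the choice by IgG sum favors.

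In input, members were higher where the gene around them was higher. Across the 754 enclosed members, read density per kb correlated with that of the enclosing gene with a Spearman rho of 0.65 and 0.60 in the input libraries, 0.49 and 0.51 in CPEB1 IP and 0.46 and 0.40 in IgG. These points share libraries and, in part, enclosing genes. Summed density on members was 14.2% and 9.40% of the summed density on the enclosing genes in input, 9.43% and 8.77% in CPEB1 IP and 29.1% and 29.7% in IgG. Enclosing genes were measured over their exons, so this sets intron-located reads beside mostly exonic ones.

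The difference between libraries was largest where the enclosing gene was silent in input. To describe it free of the IgG threshold, all 2170 single-exon genes of these names were grouped by the mean FPKM of the enclosing gene in input, a grouping that shares the input libraries. In the 300 genes whose enclosing gene reached 5 FPKM or more, density was 2.22 and 1.55 CPM per kb in input, 1.36 and 1.24 in CPEB1 IP and 3.39 and 3.32 in IgG. In the 387 genes whose enclosing gene was under 0.1 FPKM, it was 0.0412 and 0.0353 in input, 0.125 and 0.109 in CPEB1 IP and 0.630 and 0.657 in IgG. From the first class to the second, density thus dropped 53.8- and 43.8-fold in input, 10.9- and 11.3-fold in CPEB1 IP and 5.37- and 5.06-fold in IgG. Mean density in IgG was 1.78 times that in input in the first class and 16.8 times in the second. CPEB1 IP stood below input in the first class (0.69 times) and above it in the second (3.05 times). The classes were cut on input, which favors low input density in the second. Genes of low level in general also stood above input. For all 12642 genes in the middle level range of the members, the median log2 ratio to input was 0.59 for CPEB1 IP and 1.29 for IgG. The part of level and of the grouping was not tested. In both classes the 2 CPEB1 IP libraries did not overlap the 2 input libraries. A comparison of 2 against 2 libraries cannot go below p = 0.333 in an exact permutation test, and none was run.

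The members are a subset of these genes and held 8422 of their 8745 counts in input 1 and 6678 of 7075 in IgG 1. Their order of classes is therefore no separate result, and their IgG densities describe the choice by IgG. The 229 members in genes at 5 FPKM or more had 2.51 and 1.75 CPM per kb in input and 3.86 and 3.78 in IgG. The 174 in genes under 0.1 FPKM had 0.0563 and 0.0536 in input, 0.163 and 0.140 in CPEB1 IP and 0.923 and 0.978 in IgG. For the 264 members not inside a gene, densities were 0.613 and 0.467 in input, 0.437 and 0.427 in CPEB1 IP and 1.27 and 1.32 in IgG.

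**Figure D3:**
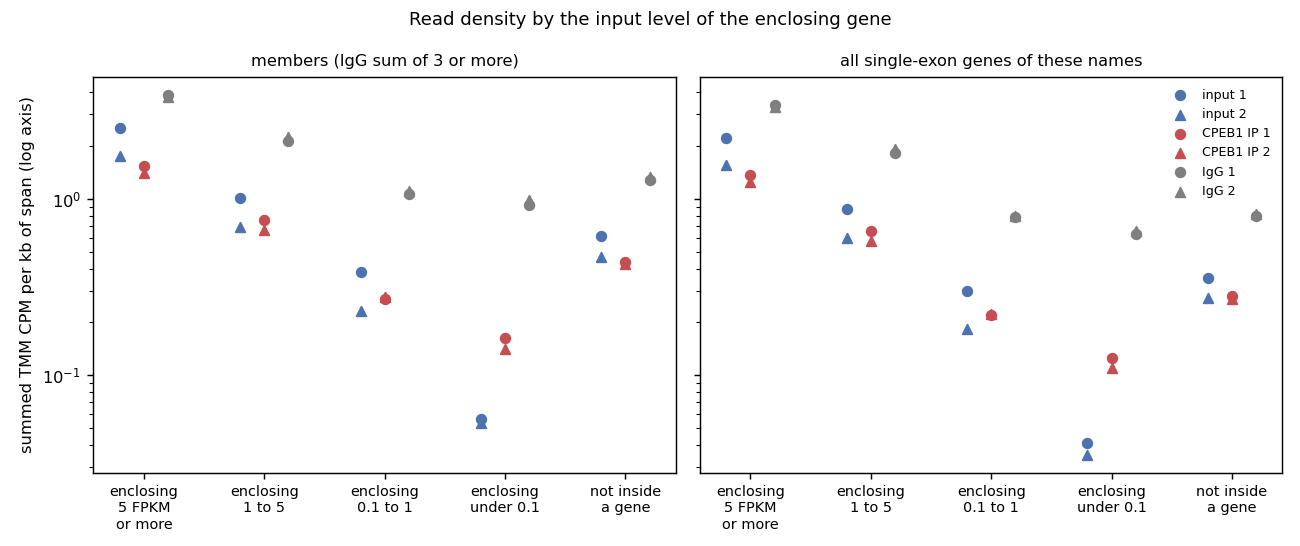
Summed TMM CPM per kb of span (y axis, log scale) by the mean input FPKM of the enclosing gene (x axis), for the members (left) and for all 2170 single-exon genes of these names (right), with 1 point for each library. From the highest to the lowest class, the input points on the right fall from 2.22 and 1.55 to 0.0412 and 0.0353, and the IgG points from 3.39 and 3.32 to 0.630 and 0.657.

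Ratios varied with position. The median log2 ratio of IgG to input (group mean CPM plus 0.5) was 1.55 for 677 members in introns only, 1.57 for 77 over an exon 1.83 for 238 outside genes and 1.11 for 26 that overlapped a gene in part. It was 1.54 on the strand of the enclosing gene and 1.64 on the opposite strand. Members that overlapped a gene in part held 8.49% and 8.75% of member counts in input and 3.23% and 3.92% in IgG. Most of that difference came from Gm37899, with 584 and 400 of the 715 and 505 input counts of these 26 members. In IgG it gave 107 and 165 of their 216 and 278 counts. Members outside genes held 8.64% and 9.82% of member counts in input and 14.9% and 14.5% in IgG. These values are descriptions, since IgG chose the members. Over all 1018 members that median was 1.67, while it was 0.81 for all single-exon genes of these names, 0.78 for all 42642 genes with a count and -0.07 over the 12171 genes tested below. Genes of low level in general had a raised ratio: in the middle level range of the members it was 1.67 for 508 members and 1.29 for all 12642 genes. Read in an IgG library that did not choose the genes, the 657 genes with at least 3 counts in IgG 1 had a median of 1.10 in IgG 2, and the 665 chosen in IgG 2 had 1.18 in IgG 1. On the deposited FPKM (plus 0.1) the median of all tested genes shifted to -0.91 and that of the members to 1.18.

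CPEB1 IP against input used no library of the rule and was tested with edgeR's quasi-likelihood test on the 12171 genes that passed the low-count filter, with Benjamini-Hochberg adjustment over all of them. Of the 1018 members, 155 (15.2%) passed that filter, so most could not be tested. Of these, 84 had both libraries of both groups above the filter's level of 3.04 CPM (here without TMM scaling), 16 had the input libraries alone above it, 3 the CPEB1 IP libraries alone and 52 a mix, which makes the counts of calls no support for a direction. Among the 155, 1 member was called higher in CPEB1 IP (0.645%) beside 17.0% of all genes tested, and 19 were called lower (12.3%) beside 15.8% of all genes tested. The share called lower is near that of all genes. With a library left out, 193 to 215 members passed the filter, so counts of calls cannot be set beside those of the 155. The median log2 fold change of the members tested was then -0.62 without input replicate 2 and -0.12 without input replicate 1. It was -0.45 without CPEB1 IP replicate 1 and -0.43 without CPEB1 IP replicate 2. Without the filter, 919 members were tested, of which 9 were called higher beside 6.14% of all genes so tested, and 25 lower beside 5.51%.

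The median log2 fold change of the 155 was -0.40 and that of all genes tested was -0.0038, with the same limit from the filter. Over all 1018 members without a filter, the median log2 ratio of CPEB1 IP to input was 0.11, compared with 0.10 for all 42642 genes with a count in any library. With a count in input or CPEB1 IP required, it was 0.21 for 919 members and 0.27 for all 34778 genes. Among genes with a mean level in the middle range of the members, it was 0.24 for 508 members and 0.59 for all 12642 genes. Leaving out either CPEB1 IP library brought the median of all members to 0.00, and leaving out input replicate 1 brought it to 0.27. The median member had 1 or 2 counts in an input or CPEB1 IP library, so these ratios move in steps of single counts.

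**Figure D4:**
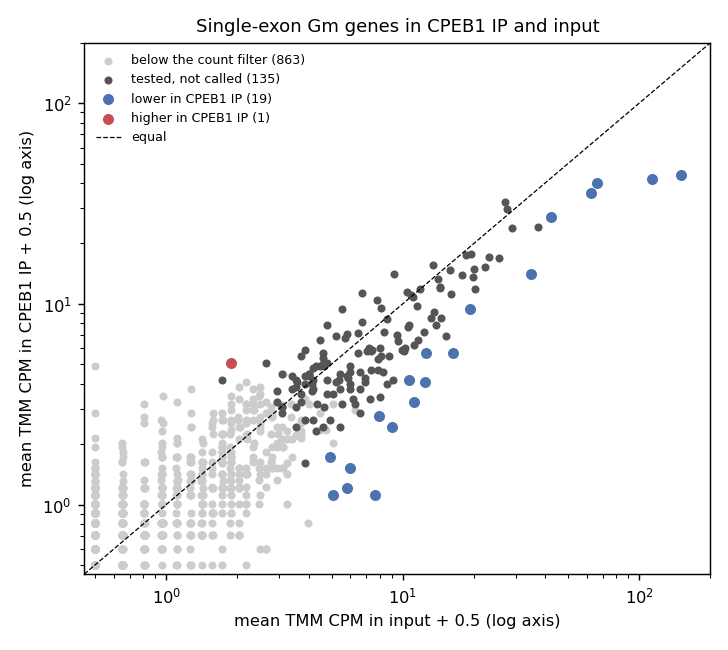
Mean TMM CPM plus 0.5 in CPEB1 IP (y axis, log scale) against input (x axis, log scale), 1 point for each member, colored by the count test. The 19 members lower in CPEB1 IP and the 1 higher lie away from the dashed line of equality, and the 863 members below the count filter crowd the lower left.

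Gm37899 was the most abundant member and was lower in CPEB1 IP. It spans chr12:109668869-109677585 on the plus strand, in no enclosing gene, and holds the snoRNA gene Gm23347, which had 0 counts in every library. Its counts were 584 and 400 in input, 120 and 184 in CPEB1 IP and 107 and 165 in IgG. Both input libraries lay above the other 4 in raw counts, and the log2 fold change of CPEB1 IP over input was -1.77 ± 0.20 (SE, adjusted p = 4.8e-05).

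Gm43430 lies in an intron of Nfkb1, the precursor of an NF-κB subunit, on its strand (chr3:135650670-135654566). It had 463 and 280 counts in input, 105 and 195 in CPEB1 IP and 156 and 134 in IgG. Its level in CPEB1 IP was lower by a log2 fold change of -1.42 ± 0.22 (adjusted p = 0.00038), whereas Nfkb1 itself had 0.29 (adjusted p = 0.15). Gm43359 and Gm43361 both lie in Atp2a2, which encodes the sarcoplasmic reticulum calcium pump SERCA2, the first on its strand within an intron (chr5:122482800-122484999) and the second on the opposite strand over an exon (chr5:122496159-122500848). Gm43359 had 223 and 182 counts in input and 90 and 164 in CPEB1 IP, with 131 and 112 in IgG. Gm43361 had 267 and 166 in input, 106 and 176 in CPEB1 IP and 124 and 156 in IgG. Raw counts of Gm43361 overlapped between the groups, although its CPM did not. Their log2 fold changes were -0.78 ± 0.18 (adjusted p = 0.0060) and -0.71 ± 0.22 (adjusted p = 0.027), while Atp2a2 was called higher at 0.71 (adjusted p = 0.00095). Without CPEB1 IP replicate 2 neither kept its call, and without input replicate 1 Gm43361 lost it.

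Gm38211, in an intron of Col5a2 (a chain of type V collagen), had 139 and 134 counts in input, 67 and 126 in CPEB1 IP and 75 and 121 in IgG. Its log2 fold change was -0.61 ± 0.19 (adjusted p = 0.029), the smallest among the called, and was not called without either CPEB1 IP library, with DESeq2 or without the filter on low counts. The other 3 of the 8 most abundant members were not called. Gm37728, in the long noncoding RNA gene Lncpint, had 110 and 65 counts in input and 84 and 144 in CPEB1 IP (log2 fold change 0.29, adjusted p = 0.42). Gm38340 in Tshz3, a zinc finger transcription factor, had a value of -0.63 (adjusted p = 0.079), and Gm43362 in Srsf11, a splicing factor, -0.24 (adjusted p = 0.59).

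The 8 members lower by the largest log2 fold changes were, besides Gm37899, less abundant. Gm37069, opposite to Capn2 (the catalytic subunit of calpain-2), had 29 and 18 counts in input, 2 and 2 in CPEB1 IP and 8 and 7 in IgG, and a log2 fold change of -3.57 ± 0.64 (adjusted p = 0.0011). Agap1, a GTPase-activating protein for Arf, held 2 of them. Gm37521 had 18 and 12 counts in input and 3 and 0 in CPEB1 IP (log2 fold change -3.28, adjusted p = 0.011), and Gm37297 had 40 and 30 in input and 8 and 11 in CPEB1 IP (-1.96, adjusted p = 0.0044). Agap1 itself had a log2 fold change of -0.09 (adjusted p = 0.66). Plxna2, a semaphorin receptor, held Gm37783 with 20 and 16 counts in input and 2 and 6 in CPEB1 IP and Gm38036 with 36 and 13 and 8 and 6. Plxna2 was itself called lower at -0.80 (adjusted p = 0.0012). Gm43677 in Ttc28 had 21 and 14 counts in input and 0 and 7 in CPEB1 IP, while Ttc28 was called higher at 1.47 (adjusted p = 1.1e-05). Gm38157 in Dst, a cytoskeletal linker, had 41 and 15 counts in input and 2 and 15 in CPEB1 IP. Both input libraries exceeded both CPEB1 IP libraries in CPM for each of these members, which their choice by call and fold change favors. How many of all genes show such a gap was not counted. Gm37069, Gm37521, Gm43677, Gm37783 and Gm38157 passed the count filter through input alone, the group where they were higher, so that their calls rest partly on that selection. In the fit of all members without the filter they had adjusted p-values of 2.5e-06, 0.00033, 0.0014, 0.0027 and 0.0018. Gm37521 and Gm37297 lost their call without CPEB1 IP replicate 2, and Gm37783 lost it without either CPEB1 IP library. Gm43677 and Gm38157 lost it without CPEB1 IP replicate 1 or input replicate 1, and Gm38036 without CPEB1 IP replicate 2 or input replicate 1 and with DESeq2.

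Among the 19 called lower, 17 lay in introns only, 16 on the strand of the enclosing gene, and 18 were enclosed by 15 different genes with 3.45 to 50.5 FPKM in input. Of all 1018 members, 66.5% lay in introns only and 62.1% on the strand of an enclosing gene. Calls could come only from the 155 tested, and 136 of these lay in an enclosing gene that was also tested. Of the 754 enclosed members, 83.8% had the strand of the enclosing gene. No enrichment of the called members is read from these positions. Of the 19, 6 passed the count filter through input alone, among them Gm38034 in Foxo1, and 4 through input and 1 CPEB1 IP library. These calls rest partly on that selection. The enclosing gene was called lower for 2 of the 18, higher for 5 and neither for 11. These are counts of members: Plxna2 gave the 2 lower, and Atp2a2 gave 2 of the 5 higher. Of all genes tested, 17.0% were called higher and 15.8% lower. Besides those named, the members lay in Mapkapk2 (a kinase downstream of p38), Foxo1 (a forkhead transcription factor), Il1r1 (the interleukin-1 receptor), Map4 (a microtubule-associated protein), Med13l (a Mediator subunit), Rap1gds1 and Tshz3. An A run of at least 10 was present in 11 of the 19, against 53 of the 155 members tested, and a T run in 10, against 65. Either run was present in 14 of the 19, against 91 of the 155. Gm37069, Gm37899, Gm38070, Gm43430 and Gm43788 kept their call under every alternative that gave an adjusted p, and the other 14 lost it under at least 1. Over the 136 tested pairs of member and enclosing gene, in 105 genes, member and gene log2 fold changes had a Pearson r of 0.07. These pairs hold only members past the filter, and no direction is read from them.

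**Figure D5:**
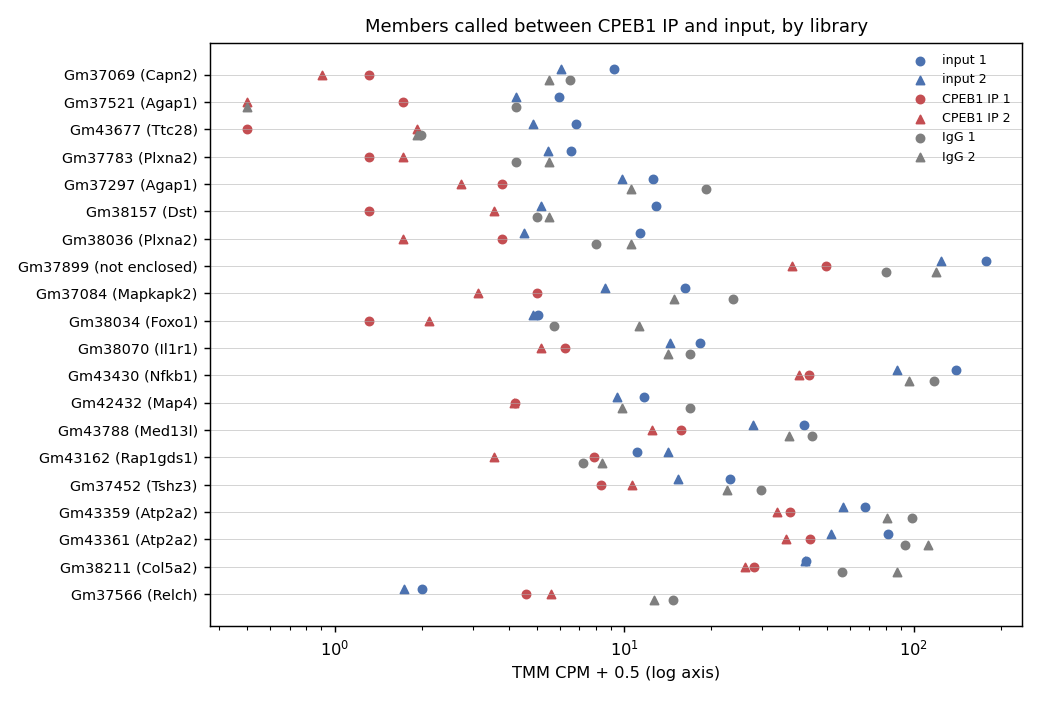
TMM CPM plus 0.5 (x axis, log scale) of the 20 called members in each of the 6 libraries, with the enclosing gene in parentheses, ordered from the most negative log2 fold change of CPEB1 IP over input. Input points lie to the right of CPEB1 IP points in the first 19, and Gm37566 shows the opposite order, as the choice of called members favors.

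Gm37566, in an intron of Relch on its strand (chr1:105708573-105712927), was the single member called higher. It had 5 and 4 counts in input, 10 and 25 in CPEB1 IP and 19 and 17 in IgG, which gave a log2 fold change of 1.79 ± 0.54 (adjusted p = 0.023). IgG, which chose the members, stood above CPEB1 IP in CPM in both libraries. It passed the count filter through CPEB1 IP alone and had an adjusted p of 0.032 without the filter. The call was lost without any 1 of the 4 libraries, with an adjusted p up to 0.34.

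All 9 SC markers (Pax7, Myf5, Vcam1, Calcr, Itga7, Cdh15, Chodl, Fgfr4 and Sdc4) had counts in each group, with a summed level of 10887 to 12208 CPM in input, 8833 to 10752 in CPEB1 IP and 8049 to 8197 in IgG. The 4 fibro-adipogenic markers (Pdgfra, Ly6a, Dcn and Lum) summed to 87.3 to 89.8 CPM in input, 314 to 333 in CPEB1 IP and 239 to 266 in IgG. The 4 endothelial markers summed to 102 to 107, 144 to 147 and 105 to 133, and the 4 myofiber markers to 57.0 to 67.6, 116 to 146 and 99.7 to 111. The 4 hematopoietic markers summed to 22.3 to 37.1, 57.4 to 66.0 and 72.4 to 76.2. Every marker was detected in every group, and the part of these cells in the member levels was not tested.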

How the data were processed

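RIP-seq of SCs gave 6 libraries, 2 each of input, CPEB1 IP and IgG, grouped by the sample labels. The authors aligned reads to mm10 (HISAT) and deposited raw featureCounts counts for each gene, without normalization; the submitters' notes also name StringTie. The deposited FPKM was computed by the authors from these counts, the deposited gene length (summed exon bases) and a library total above the counts on genes. The annotation release, the strand setting and the treatment of overlapping genes and of reads mapping to several places are not given in the sources used here.

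Members and lists were chosen with earlier results of these data known. Positions, biotypes and sequences came from GENCODE M21 on the same assembly, whose span matched all 1018 members and 54261 of 55376 genes. A gene was inside another when its span lay between the other's start and end, and the enclosing gene is the shortest such gene with several exons where there was one. Levels are counts divided by the TMM-scaled library size, as CPM, with 0.5 added before log2 for ratios of group means. Counts of CPEB1 IP and input were compared in R 4.3.3 with edgeR 4.0.16 (filterByExpr, TMM, quasi-likelihood test, Benjamini-Hochberg adjusted p under 0.05), after the procedure was tested on simulated data. Standard errors are the log2 fold change divided by the square root of F. IgG contrasts were not tested, since IgG counts chose the members. Named members were the 8 with the highest mean CPM, up to 8 called in each direction by size, those in the 4 genes holding most members, 3 with no input count and the highest IgG sum, and the 3 longest and 3 shortest; other called members were named after their values were seen. Alternatives were DESeq2 1.42.0, DESeq2 size factors in edgeR, no filter, a replicate block, all libraries in 1 fit, each library left out, other IgG thresholds, pseudocounts and scales. Tables were made with Python 3.11.15, numpy 2.4.6, pandas 2.3.3 and scipy 1.17.1. Depth was 1284716 to 4941653 counts on genes, so 1 count is worth 0.203 to 0.747 CPM.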

Additional observations from a re-analysis of the deposited data

How the results depend on the processing

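With 2 libraries in each group, most counts of calls moved. The 1 member called higher became 0 with DESeq2 1.42.0, 9 without the filter, 6 with all 6 libraries in 1 fit, and 0 to 5 with a library left out. The 19 called lower became 9 with DESeq2, which gave no adjusted p for 57 of the 155, and 12 to 39 with a library left out. With the replicate number as a block the counts were 1 and 19. The deviations of same-numbered CPEB1 IP and input libraries had a correlation of -0.0177 across 22062 genes. With 2 libraries in each group, this value cannot decide whether same-numbered libraries came from the same experiment. Of the 20 called members, 5 kept their call in every fit that gave an adjusted p. With a library left out, the log2 fold change of Gm37728 (0.29) ranged from -0.045 to 0.67 and that of Gm43362 (-0.24) from -0.70 to 0.42, each changing sign.

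The median log2 ratio of CPEB1 IP to input (0.11) ranged from 0.00 to 0.27 with a library left out. It was 0.00 at an IgG sum of at least 1, -0.089 at 10, and 0.00 for all single-exon genes of these names, an alternative added after seeing the data. That of IgG to input (1.67) was 2.39 and 0.79 with pseudocounts of 0.1 and 2, 1.18 on deposited FPKM, 1.32 to 1.70 with a library left out, 1.29 and 1.36 at IgG sums of 1 and 10, and 0.81 with no threshold. The mean share of counts on members was 0.113% in CPEB1 IP and 0.205% in IgG of the authors' library total. At IgG sums of 1 and 10 it was 0.171% and 0.131% in CPEB1 IP and 0.551% and 0.387% in IgG, and with no threshold 0.175% and 0.551%. Members inside another gene were 69.7% with protein-coding enclosing genes, 65.1% and 83.9% at IgG sums of 1 and 10, and 57.1% with no threshold. The cause of these shifts was not tested.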

Other observations

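The members outside TEC were few, and a single member weighed heavily in some of their sums. The 46 processed pseudogenes, with a median span of 424.5 bases, summed to 185 and 151 counts in input, 153 and 280 in CPEB1 IP and 145 and 119 in IgG. Gm37486 alone gave 95 and 82 of these counts in input, 71 and 144 in CPEB1 IP and 32 and 17 in IgG. The 63 sense intronic members had 692 and 456, 421 and 734, and 584 and 588. The 24 lincRNAs, 3 of them inside another gene, had 147 and 77 counts in input, 97 and 204 in CPEB1 IP and 127 and 155 in IgG. Of these counts, Gm43062 alone gave 69 and 32 in input, 34 and 72 in CPEB1 IP and 42 and 38 in IgG. A processed pseudogene resembles the mRNA of its parent gene, so its reads are uncertain between the copies.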
